A study of Homo sapiens with 10 samples.

Results

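The hypoxia response and glycolysis genes are 34 genes, found by symbol among the 58870 genes of the expression table of LS180 cells. LS180 is an established human colorectal cancer line, here carrying CRISPR interference, in which an inactive Cas9 and a guide RNA repress a chosen gene at its promoter. The tested lines were sg1, sg2 and sg3, each with 1 guide against RNASE1, and their controls were NTC1 and NTC2, with non-targeting guides. Each of these 5 lines gave 2 libraries, lettered B and A. The series concerns what the secreted ribonuclease RNASE1 does to gene expression inside the cell. All cells grew in the same serum-containing medium without any drug. The labels give no oxygen level and name no culture as hypoxic, and they do not say what the letters stand for, whether the libraries of a line came from separate cultures, or whether a line was a clone or a pool. The p-values therefore measure only the spread between these libraries, which may be technical.

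When oxygen falls, the prolyl hydroxylases that mark HIF alpha subunits for VHL and the proteasome slow down, and HIF dimers switch on genes carrying the core motif ACGTG or GCGTG, the hypoxia response element. The targets include carbonic anhydrases that hydrate carbon dioxide, angiogenic signals, mitophagy receptors, the hydroxylases themselves and nearly every step that takes glucose to lactate. Many cancer cells also run glycolysis at a high rate in air. The 34 genes were read in 3 groups, made of 16 HIF targets outside the glycolytic enzymes, 3 transporters of glucose or lactate and 15 plain glycolytic enzymes. Many of these enzymes are HIF targets as well.

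Promoter windows of 300 bases, most of it upstream of a RefSeq start site on GRCh38.p14, are shown for 5 members whose B and A libraries did not overlap. They carry the core motif in different numbers. Capitals mark ACGTG or GCGTG on either strand, so that CACGT and CACGC are the motif on the other strand and CACGTG holds it on both. CA9 has a described hypoxia response element beside its start, PGK1 and LDHA are classical HIF1 promoters, and EGLN3 and KDM3A moved in opposite directions below. The windows are chr9:35673678-35673977 (CA9, plus strand), chrX:78103998-78104297 (PGK1, plus), chr11:18394313-18394612 (LDHA, plus), chr14:33951025-33951324 (EGLN3, minus) and chr2:86441121-86441420 (KDM3A, plus).
CA9: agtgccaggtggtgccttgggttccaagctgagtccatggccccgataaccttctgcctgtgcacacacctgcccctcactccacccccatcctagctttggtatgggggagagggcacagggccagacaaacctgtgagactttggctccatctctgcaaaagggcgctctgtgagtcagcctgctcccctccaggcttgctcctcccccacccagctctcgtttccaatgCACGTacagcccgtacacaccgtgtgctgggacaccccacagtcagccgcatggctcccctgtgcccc
PGK1: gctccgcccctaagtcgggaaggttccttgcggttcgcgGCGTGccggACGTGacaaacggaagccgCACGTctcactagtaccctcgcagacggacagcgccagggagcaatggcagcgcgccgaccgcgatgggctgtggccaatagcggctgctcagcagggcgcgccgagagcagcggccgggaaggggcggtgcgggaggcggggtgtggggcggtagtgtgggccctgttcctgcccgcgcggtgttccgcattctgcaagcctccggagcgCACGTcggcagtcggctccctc
LDHA: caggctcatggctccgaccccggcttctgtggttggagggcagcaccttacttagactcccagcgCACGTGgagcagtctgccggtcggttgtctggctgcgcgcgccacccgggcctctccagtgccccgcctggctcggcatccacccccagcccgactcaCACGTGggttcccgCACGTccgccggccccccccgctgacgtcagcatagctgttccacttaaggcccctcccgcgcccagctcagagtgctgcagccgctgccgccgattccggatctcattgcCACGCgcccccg
EGLN3: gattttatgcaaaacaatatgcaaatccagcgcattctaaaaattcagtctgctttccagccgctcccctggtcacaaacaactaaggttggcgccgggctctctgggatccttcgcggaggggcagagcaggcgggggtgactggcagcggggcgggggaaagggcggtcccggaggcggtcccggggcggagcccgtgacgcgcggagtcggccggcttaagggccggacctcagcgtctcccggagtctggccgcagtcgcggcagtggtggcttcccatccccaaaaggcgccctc
KDM3A: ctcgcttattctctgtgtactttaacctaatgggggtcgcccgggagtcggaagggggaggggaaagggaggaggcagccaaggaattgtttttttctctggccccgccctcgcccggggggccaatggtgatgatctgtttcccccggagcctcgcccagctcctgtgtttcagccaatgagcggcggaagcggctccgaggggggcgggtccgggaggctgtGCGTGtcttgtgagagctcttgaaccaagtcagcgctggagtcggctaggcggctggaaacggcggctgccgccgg
CA9 had 1 ACGTG, PGK1 had 3 ACGTG and 1 GCGTG, LDHA had 5 ACGTG and 1 GCGTG, KDM3A had 1 GCGTG, and EGLN3 had no match in this window. Windows were found for 30 of the 34 members, and 25 of them (83.3%) held at least 1 of these motifs, against 48.4% of 35116 RefSeq windows of the same length. ACGTG alone stood in 21.4% of all windows and GCGTG in 36.5%. The members were chosen as hypoxia and glycolysis genes, and the windows were not matched for GC content, so these shares are descriptions.

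Depth and the repressed gene were checked first. Library totals ran from 39026605 to 45050991 expected counts, and RNASE1 stood at 1.02 to 3.75 CPM in the 6 guide libraries, against 16.4 to 23.7 CPM in the 4 NTC libraries. CPM is the count scaled to the depth of its library, here after TMM, a trimmed mean of ratios between libraries. The B and A libraries separated on the first principal component of all genes, which held 18.2% of the variance, at 8.38 to 19.7 in B and -22.0 to -13.2 in A. All 8 colon epithelial marker genes were detected, with summed levels of 5330 to 6330 CPM in B libraries and 6680 to 6960 CPM in A libraries. KRT8 and KRT18 carried most of these sums, with means of 2540 and 1350 CPM in B and 3280 and 1750 CPM in A. The other markers did not fall past the threshold, and KRT20, CDX2 and VIL1 rose in B. Markers of other cell types were scarce, with 0 of 5 endothelial and 3 of 7 fibroblast genes at 1 CPM or more, and fibroblast sums of 3.74 to 5.32 CPM in B and 3.90 to 4.93 CPM in A. The leukocyte list reached 35.1 to 44.7 CPM in B and 41.8 to 45.9 CPM in A, carried by LYZ and CD68.

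All members but 1 were expressed. The exception was SLC2A3, the neuronal-type glucose transporter GLUT3, with 0 counts in all 10 libraries, where 3 counts, the most that a count of 0 allows, correspond to at most 0.0767 CPM. Scaled to the length of the principal transcript, the enzymes spanned a wide range. GAPDH, the dehydrogenase in mid-pathway, was first at 2620 CPM per kb, followed by the enolase ENO1 at 1100, the pyruvate kinase PKM at 968, the aldolase ALDOA at 943, the triose isomerase TPI1 at 795, the lactate dehydrogenase LDHA at 584 and the mutase PGAM1 at 407 CPM per kb. The first steps were lower, with 30.4 CPM per kb for the hexokinase HK2, 30.0 for its relative HK1 and 27.1 for the phosphofructokinase PFKP, values that lie close together, while PFKL, the liver-type phosphofructokinase, stood at 104 CPM per kb. Among HIF targets outside the enzymes, VEGFA, the angiogenic growth factor, led with 77.0 CPM per kb, P4HA1 held 24.5, CA9 held 15.5 and BNIP3 held 15.2 CPM per kb. ADM, the vasodilator peptide adrenomedullin, and ANKRD37, an ankyrin repeat protein, closed the list at 1.71 and 0.862 CPM per kb. These scaled levels depend on the transcript chosen, which was 1199 bases for VEGFA, 14193 for PDK1 and 4887 for PGK1.

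Between the letters, 17 of the 33 members tested fell in B, 3 rose and 13 did not pass the threshold (edgeR quasi-likelihood test with the line in the model, Benjamini-Hochberg adjusted p under 0.05 over 16411 genes). Of all genes tested 15.0% fell and 14.6% rose, 29.6% in either direction, against 20 of the 33 members. The median log2 difference, B over A, was -0.09 for the members and 0.00 for all genes, and 25 of the 33 values were negative. In 14 members every B library lay below every A library, a pattern that 9.58% of all genes showed, and in 3 members every B library lay above every A library, against 9.64% of all genes. That CA9 was lower in B was part of how the genes were chosen, so its letter values are given as a description with no test. Without CA9, 19 of 32 members passed in either direction, 16 of them falling, and in 13 every B library lay below every A library.

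**Figure D1:**
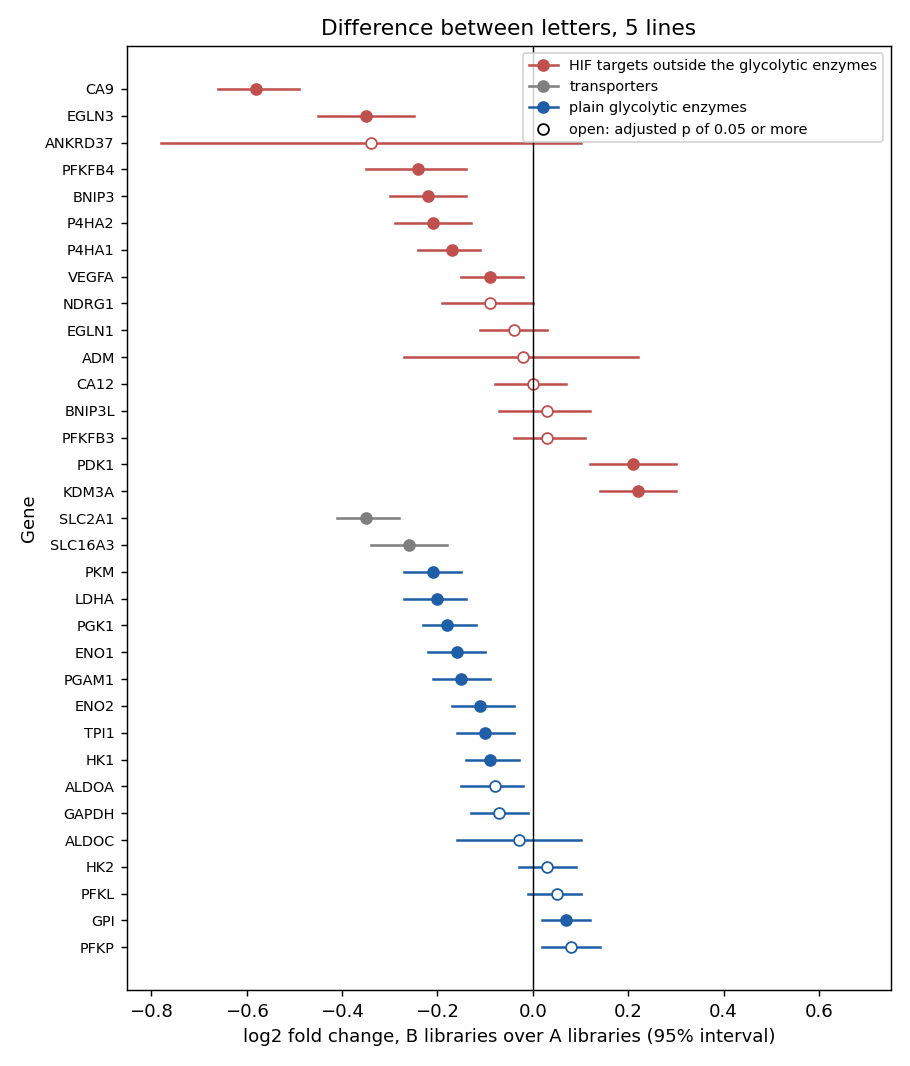
Log2 fold change of B over A libraries for the 33 members tested, with 95% intervals, over 5 lines. Filled points passed an adjusted p of 0.05. CA9 lies farthest to the left at -0.58. Its lower level in B was part of how the genes were chosen, so its filled point and interval are a description and no test. PDK1 and KDM3A lie to the right at 0.21 and 0.22, and the plain enzymes stay between -0.21 and 0.08.

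CA9, the membrane carbonic anhydrase IX that hydrates carbon dioxide at the cell surface, showed the largest difference of the 33 members. The gene (ENSG00000107159) lies on chromosome 9 from 35673856 to 35681159 on the plus strand of GRCh38. It stood at 22.4, 21.4, 18.7, 19.6 and 18.6 CPM in the B libraries of sg1, sg2, sg3, NTC1 and NTC2, against 33.7, 31.1, 29.8, 27.7 and 28.1 CPM in the A libraries of these lines. The groups did not overlap, and B was lower in all 5 lines. The means were 20.1 ± 1.67 CPM in B and 30.1 ± 2.42 CPM in A (SD, n = 5 libraries each), a log2 difference of -0.58 (SE 0.04), which is 33% lower in B. Within single lines the log2 difference ran from -0.67 in sg3 to -0.49 in NTC1. Over the 14 alternative analyses it lay between -0.60 and -0.52. CA12, the second membrane carbonic anhydrase among the members, differed by 0.00 (95% interval -0.08 to 0.07), at 67.2 to 74.4 CPM in B and 65.2 to 73.6 CPM in A.

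CA9 shares 643 of its 1670 exon bases with ARHGEF39, a gene on the other strand, and the libraries do not mark strand. Reads from the shared bases cannot be assigned by strand, and the deposited counts of the pair were alike in size, at 10669 for CA9 and 11457 for ARHGEF39 over the 10 libraries. ARHGEF39 stood at 27.4, 26.8, 26.5, 25.0 and 23.2 CPM in the B libraries of sg1, sg2, sg3, NTC1 and NTC2, against 28.2, 28.7, 29.4, 26.4 and 28.1 CPM in their A libraries. Its B and A libraries overlapped, unlike those of CA9. Its log2 difference was -0.13 (SE 0.04, edgeR adjusted p = 0.0285). How far the division of shared reads sets either value was not tested.

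**Figure D2:**
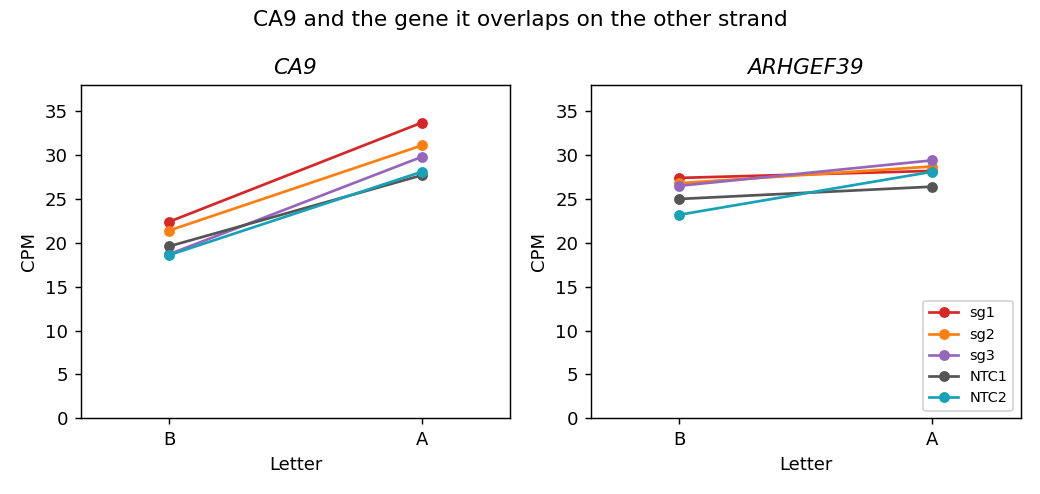
CPM of CA9 and of ARHGEF39, which it overlaps on the other strand, in the B and A libraries of each line, with lines joining the libraries of 1 cell line. CA9 runs from 18.6 to 22.4 CPM in B and from 27.7 to 33.7 CPM in A, while ARHGEF39 runs from 23.2 to 27.4 CPM in B and from 26.4 to 29.4 CPM in A.

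Of the 16 HIF targets outside the enzymes, 7 fell in B, 2 rose and 7 did not pass, with a median of -0.09 and a range from -0.58 to 0.22. Without CA9, 6 of 15 fell, where 15.0% of all genes fell and 14.6% rose. Apart from CA9, EGLN3 fell most. It encodes the prolyl hydroxylase PHD3, which marks HIF alpha for degradation and is itself induced by HIF. EGLN3 (ENSG00000129521, chromosome 14 from 33924231 to 34462774) held 16.0, 16.6, 14.4, 16.2 and 17 CPM in the B libraries of sg1, sg2, sg3, NTC1 and NTC2, against 19.7, 20.8, 20.5, 20.0 and 21.0 CPM in their A libraries. All B values lay below all A values, with a log2 difference of -0.35 (SE 0.05, edgeR adjusted p = 0.000121). Its relative EGLN1, the main oxygen-sensing hydroxylase PHD2, did not pass at -0.04 (95% interval -0.11 to 0.03).

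The other falling HIF targets had smaller differences. PFKFB4, which makes the phosphofructokinase activator fructose 2,6-bisphosphate, stood at 10.4 to 12.6 CPM in B and 12.8 to 14.4 CPM in A (log2 difference -0.24, edgeR adjusted p = 0.00221). BNIP3, a mitophagy receptor, stood at 42.5, 39.1, 37.8, 39.4 and 42.1 CPM in the B libraries of sg1, sg2, sg3, NTC1 and NTC2, against 45.4, 47.0, 46.1, 48.9 and 46.9 CPM in their A libraries. The letters did not overlap for BNIP3 (log2 difference -0.22, edgeR adjusted p = 0.000647). The collagen prolyl hydroxylase subunits moved together, P4HA2 by -0.21 (edgeR adjusted p = 0.000749) and P4HA1 by -0.17 (edgeR adjusted p = 0.000868), both without overlap. VEGFA was close to the threshold, at 83.9 to 93.2 CPM in B and 94.4 to 96.2 CPM in A (log2 difference -0.09, edgeR adjusted p = 0.0376).

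A pair of HIF targets rose in B. KDM3A, a histone H3 lysine demethylase (ENSG00000115548, chromosome 2 from 86440647 to 86492716), stood at 40.0, 39.9, 43.0, 41.9 and 39.1 CPM in the B libraries of sg1, sg2, sg3, NTC1 and NTC2, against 33.9, 37.1, 36.2, 33.3 and 34.9 CPM in their A libraries. Every B value exceeded every A value, and the fold was 1.16 (log2 difference 0.22, SE 0.04, edgeR adjusted p = 0.000761). PDK1, the kinase that switches off pyruvate dehydrogenase (ENSG00000152256, chromosome 2 from 172555373 to 172608669), stood at 33.9, 38.2, 34.3, 38.3 and 39.5 CPM in the same B libraries, against 30.5, 33.5, 32.5, 29.9 and 32.5 CPM in A. Its letters did not overlap either (log2 difference 0.21, SE 0.04, edgeR adjusted p = 0.00179). Besides CA12 and EGLN1, the HIF targets that did not pass were ADM at -0.02, NDRG1, a stress-induced differentiation gene, at -0.09, BNIP3L, a mitophagy receptor, at 0.03, PFKFB3, a relative of PFKFB4, at 0.03, and ANKRD37 at -0.34. ANKRD37 is measured poorly, with 0.617 to 1.07 CPM in B and 1.04 to 1.18 CPM in A, an interval from -0.78 to 0.10, and 909 of its 2580 exon bases shared with UFSP2 on the other strand.

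**Figure D3:**
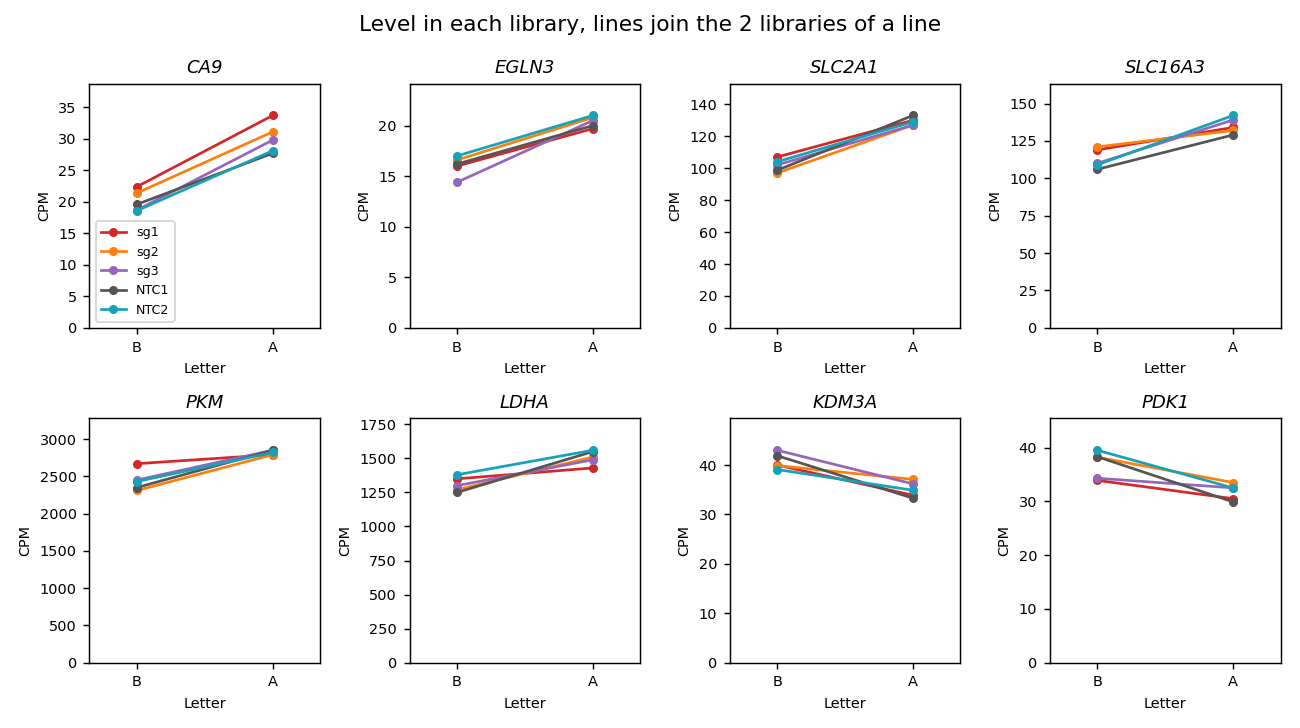
CPM of 8 members in each of the 10 libraries, B on the left and A on the right, with lines joining the libraries of 1 cell line and axes from 0. CA9, EGLN3, SLC2A1, SLC16A3, PKM and LDHA are lower in B in all 5 lines, and KDM3A and PDK1 are higher in B in all 5.

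The transporters at both ends of glycolysis fell together. SLC2A1, the glucose transporter GLUT1 (ENSG00000117394, chromosome 1 from 42925375 to 42959176), stood at 107, 97.0, 102, 98.7 and 104 CPM in the B libraries of sg1, sg2, sg3, NTC1 and NTC2, against 130, 127, 127, 133 and 129 CPM in their A libraries. The letters did not overlap, and the log2 difference was -0.35 (SE 0.03, edgeR adjusted p = 6e-06). SLC16A3, the lactate exporter MCT4 (ENSG00000141526, chromosome 17 from 82228397 to 82261129), stood at 119, 121, 110, 106 and 109 CPM in the same B libraries, against 134, 132, 139, 129 and 142 CPM in A. It did not overlap between letters (log2 difference -0.26, SE 0.04, edgeR adjusted p = 0.000177). A stretch of 482 of the 8995 SLC16A3 exon bases is shared with CSNK1D on the other strand, which differed by 0.07 (edgeR adjusted p = 0.0668).

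Of the 15 plain glycolytic enzymes, 8 fell in B, 1 rose and 6 did not pass, with a median of -0.09 and a range from -0.21 to 0.08. Over all genes tested, 15.0% fell and 14.6% rose. The falling enzymes sat mainly in the lower part of the pathway. PKM, pyruvate kinase (ENSG00000067225, chromosome 15 from 72199029 to 72231822), stood at 2670, 2310, 2450, 2350 and 2430 CPM in the B libraries of sg1, sg2, sg3, NTC1 and NTC2, against 2790, 2790, 2850, 2850 and 2820 CPM in their A libraries (log2 difference -0.21, SE 0.03, edgeR adjusted p = 0.000176). LDHA, which turns pyruvate into lactate (ENSG00000134333, chromosome 11 from 18394388 to 18408425), stood at 1350, 1270, 1300, 1250 and 1380 CPM in the same B libraries, against 1430, 1510, 1490, 1550 and 1560 CPM in A (log2 difference -0.20, SE 0.03, edgeR adjusted p = 0.00025). PGK1, phosphoglycerate kinase (ENSG00000102144, X chromosome from 77910739 to 78129296), stood at 572 to 614 CPM in B and 648 to 688 CPM in A (log2 difference -0.18, edgeR adjusted p = 0.000257). None of these 3 enzymes overlapped between the letters.

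ENO1 at -0.16 and PGAM1 at -0.15 passed too (edgeR adjusted p = 0.00115 and 0.00169). Smaller differences passed for ENO2, the neuronal enolase, at -0.11, for TPI1 at -0.10 and for HK1 at -0.09 (edgeR adjusted p = 0.0208, 0.0157 and 0.021). GPI, the isomerase of the second step, was the enzyme that rose, at 879 to 937 CPM in B and 831 to 908 CPM in A (log2 difference 0.07, edgeR adjusted p = 0.0292), and its letters overlapped. PFKP at 0.08, ALDOA at -0.08 and GAPDH at -0.07 missed the threshold (edgeR adjusted p = 0.0536, 0.0549 and 0.0668), although every PFKP value in B, from 72.9 to 76.3 CPM, exceeded every value in A, from 67.3 to 71.0 CPM. HK2 at 0.03, PFKL at 0.05 and ALDOC, a brain-type aldolase, at -0.03 did not pass either. Counts assigned to processed pseudogenes were at most 0.55% of the gene's own count, for LDHA, and 0.047% for GAPDH with its 62 pseudogenes, but RSEM had already divided ambiguous reads, so how many reads the copies share cannot be seen.

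The letter difference of the abundant enzymes was not the same in every line. Of the 9 enzymes at 500 CPM or more, 8 had a lower mean in B, and in each of these 8 the sg1 line showed the smallest fall or a rise. The log2 differences within sg1 lay between -0.09 for PGK1 and 0.06 for GAPDH, against -0.31 to -0.05 in the other 4 lines. GAPDH stood at 5060 CPM in sg1 B and 4840 CPM in sg1 A, whereas sg2, sg3, NTC1 and NTC2 had 4730, 4720, 4560 and 4880 CPM in B and 4980, 5060, 5000 and 5250 CPM in A. All 15 enzymes together took 1.65 ± 0.046% of counts in B and 1.75 ± 0.031% in A (SD, n = 5 each), with 1.72% in sg1 B and 1.71% in sg1 A. CA9 did not share this, with a log2 difference of -0.59 within sg1, nor did PFKFB4 at -0.29. The sg1 pattern was not limited to the enzymes. NDRG1 stood at 0.11 in sg1 and -0.16 to -0.12 in the other 4 lines, and BNIP3 at -0.09 and -0.31 to -0.15. Its share over all genes was not counted. Over all genes the letter fit called 2512 lower and 2498 higher without sg1, against 2458 and 2392 with all lines. Without another line it called 1737 to 2149 lower and 1742 to 2137 higher. The keratins KRT8 and KRT18 of the colon epithelial list moved with the enzymes, at 3010 and 1510 CPM in sg1 B, against 2280 to 2550 and 1250 to 1380 CPM in the other B libraries. Of the other 6 genes in that list KRT20, CDX2 and VIL1 rose in B and 3 did not pass, and the part of these markers in the result was not tested. Whether sg1 differs from the other lines was not tested, and the pattern was noticed in the values. With sg1 left out, ALDOA (-0.11), GAPDH (-0.10) and NDRG1 (-0.14) fell past the edgeR threshold, but sg1 had been singled out on these same values. This is therefore a description and no test. Without NTC1, NTC2, sg2 or sg3 none of these genes passed.

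**Figure D4:**
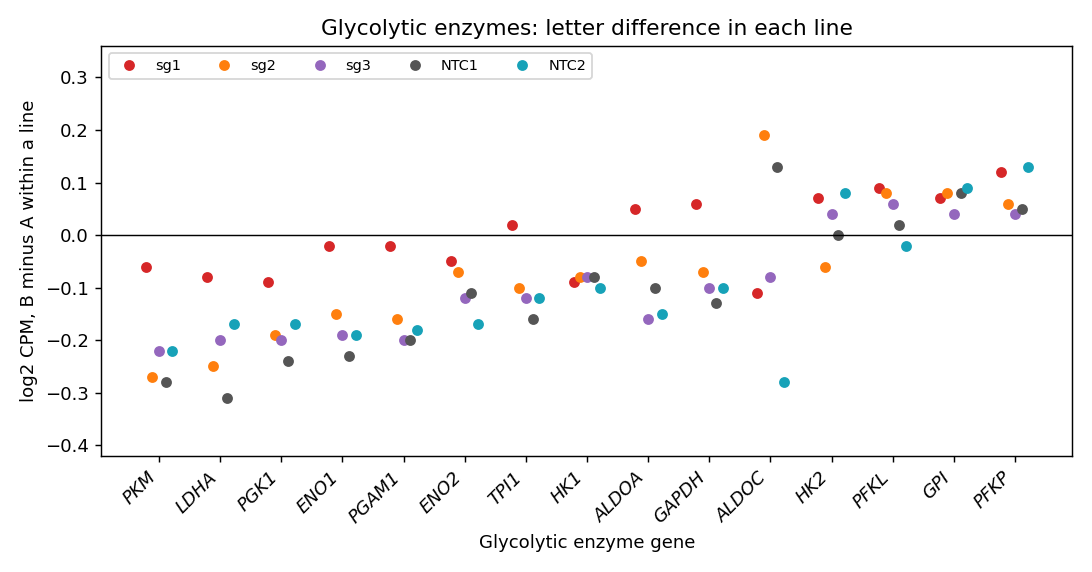
Log2 CPM of B minus A within each of the 5 lines for the 15 plain glycolytic enzymes. In the 8 enzymes at 500 CPM or more with a lower mean in B, the sg1 points lie between -0.09 and 0.06 and the other 4 lines lie between -0.31 and -0.05.

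Set side by side, the HIF targets outside the enzymes and the plain enzymes had the same median letter difference, -0.09, but the HIF targets were spread more widely. With CA9 set aside they still ran from -0.35 for EGLN3 to 0.22 for KDM3A. CA9, EGLN3, PFKFB4 and BNIP3 lay below the lowest enzyme, PKM, as did ANKRD37, which did not pass (-0.34). P4HA2 was level with PKM at folds of 0.863 and 0.864, and KDM3A and PDK1 lay above the highest enzyme. The 16 HIF targets together took 0.06 ± 0.00055% of counts in B and 0.0623 ± 0.00092% in A (SD, n = 5 each). These sums include CA9, whose lower level in B was part of the choice, so they are a description. The share without CA9 was not computed. The core motif did not sort the members by direction, with 12 of 16 windows (75%) of members that fell, all 3 windows of members that rose and 10 of 11 windows (90.9%) of the members without a call holding it. In bulk libraries, fewer cells of a type and less RNA per cell cannot be told apart.

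Transcript length moved with the letter across all genes. Over 9520 genes at 10 CPM or more, all measured in the same 10 libraries, Spearman's rank correlation between the letter difference and transcript length was 0.427, and with GC content it was 0.028, given as descriptions. Member transcripts were 1141 to 14193 bases long with a median of 2886, against 2740 for all genes tested. With an offset for length, an alternative chosen after the data were seen, 16 members fell and 2 rose. Over all genes the same fit called 2152 lower and 2248 higher. CA9 stood at -0.52. The calls of VEGFA (-0.01, adjusted p = 0.859), PDK1 (0.09, adjusted p = 0.105), GPI (0.05, adjusted p = 0.0649) and TPI1 (-0.02, adjusted p = 0.567) ended in that edgeR fit, and EGLN1 (-0.11, adjusted p = 0.0124) and PFKP (0.10, adjusted p = 0.0122) passed. The median of the HIF targets was then -0.11 and that of the enzymes -0.03. The offset used 1 transcript length per gene, 1199 bases for VEGFA and 14193 for PDK1. How far that choice sets the values with the offset was not tested.

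Of the 19 member calls other than CA9, 14 held whichever line was left out, and the other 5 were VEGFA, ENO2, TPI1, HK1 and GPI. VEGFA missed the threshold without NTC1, NTC2, sg2 or sg3 (edgeR adjusted p up to 0.171), ENO2 without NTC1, NTC2 or sg3 (up to 0.0798), and TPI1, HK1 and GPI without NTC1, sg2 or sg3 (up to 0.0819, 0.0784 and 0.117). Across all 14 alternatives 12 of these 19 calls held, those of EGLN3, BNIP3, P4HA1, P4HA2, KDM3A, SLC2A1, SLC16A3, PGK1, PGAM1, ENO1, PKM and LDHA.

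The upstream regulators of HIF were mixed between the letters. Of 15 tested, 4 rose in B, 5 fell and 6 did not pass, with a median of 0.01, where 14.6% of all genes rose and 15.0% fell. EPAS1, the HIF2 alpha subunit, fell the most, at 3.73 to 4.58 CPM in B and 4.93 to 6.03 CPM in A (log2 difference -0.40, SE 0.08, edgeR adjusted p = 0.00215). VHL, which targets HIF alpha for degradation, rose, at 31.8 to 37.8 CPM in B and 23.2 to 29.7 CPM in A (log2 difference 0.36, SE 0.04, edgeR adjusted p = 7.87e-05). The HIF coactivators CREBBP (0.31) and EP300 (0.26) rose, and ELOB (-0.25) and RBX1 (-0.24), partners of VHL in its ubiquitin ligase, fell. Letter difference and transcript length were correlated over the 9520 genes at 10 CPM or more (Spearman's rank correlation 0.427). The part of transcript length in the values of these regulators and of the lists below was not tested. HIF1A, the HIF1 alpha subunit, named after its values were seen, rose by 0.11 (edgeR adjusted p = 0.0123). HIF1A protein is controlled mainly by degradation and was not measured.

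Of 24 tested genes in a wider list of HIF targets, 4 rose, 3 fell and 17 did not pass, with a median of 0.04. These 7 of 24 are close to the 29.6% of all genes called in either direction, so the count is no result about the list. IGFBP3 (0.26), STC2 (0.25), KDM4B (0.21) and FUT11 (0.20) rose, and AK4 (-0.23) and GBE1 (-0.19) fell. STC2, a secreted glycoprotein hormone, was at 63.9 to 68.0 CPM in B and 52.8 to 57.3 CPM in A. Of 31 other genes of glycolysis, gluconeogenesis and pyruvate use, 6 rose and 5 fell with a median of 0.01, again beside 29.6% of all genes called. Among them was the hexokinase-like HKDC1 at -0.44 (edgeR adjusted p = 7.28e-06), at 24.4 to 27.9 CPM in B and 31.4 to 36.3 CPM in A. PCK1 (0.34) and FBP1 (0.24), enzymes of gluconeogenesis, rose, the mitochondrial pyruvate carrier subunit MPC2 (-0.20) fell, and SLC16A7, a monocarboxylate transporter, differed by 1.39 (SE 0.47, edgeR adjusted p = 0.0372) at very low levels of 0.281 to 0.334 CPM in B and 0.0242 to 0.236 CPM in A, the lowest of which are below the floor of 3 counts. In the pentose phosphate pathway 1 of 6 genes passed, the epimerase RPE at -0.19. Neither glucose-sensing MondoA target, TXNIP at 0.07 and ARRDC4 at 0.00, passed. Of 9 genes of pH handling, 1 rose and 2 fell. The cytosolic carbonic anhydrase CA2 fell by -0.69 (edgeR adjusted p = 0.000669), at 1.47 to 2.67 CPM in B and 2.92 to 4.16 CPM in A. CA8 stood at 0.21 and ATP6V0D1 at -0.14. With 29.6% of all genes called, the counts of the pH handling and pentose phosphate lists are no result about these lists. Among the colon epithelial markers KRT20 (0.41), CDX2 (0.17) and VIL1 (0.16) rose and KRT8 (-0.38) and KRT18 (-0.38) fell, and their part in the member results was not tested.

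Between guide and NTC lines, 0 of the 33 members passed, where 0.0231% of 17335 genes did (3 guide lines against 2 NTC lines with B and A summed, edgeR adjusted p under 0.05). DESeq2 called 0 members as well. At an unadjusted p under 0.05 there were 2 members, CA9 and HK1, against 7.98% of all genes. The median member difference, guide over NTC, was 0.00, with a range from -0.06 to 0.18. For 30 of the 33 members the 95% interval lay within a 1.2-fold change in either direction, as it did for 10308 of 17335 genes. The exceptions among the members were CA9, ADM (0.18, interval -0.12 to 0.48) and ANKRD37 (-0.03, interval -0.47 to 0.41).

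CA9 averaged 28.0, 26.3 and 24.3 CPM in sg1, sg2 and sg3, against 23.7 CPM in NTC1 and 23.4 CPM in NTC2. The guide lines therefore lay above both NTC lines, at 26.2 ± 1.87 CPM (SD, n = 3 lines) and 23.5 ± 0.205 CPM (SD, n = 2 lines). The log2 difference was 0.17 (SE 0.05, 95% interval 0.05 to 0.29) with an unadjusted p of 0.00993 and an adjusted p of 0.444 in edgeR. In the A libraries all 3 guide values, 29.8 to 33.7 CPM, exceeded both NTC values, 27.7 and 28.1 CPM, but in the B libraries sg3 at 18.7 CPM lay below NTC1 at 19.6 CPM. Every guide library in B, at most 22.4 CPM, lay below every NTC library in A. ARHGEF39 differed by 0.12 (SE 0.04) in the same comparison, and its part in the CA9 value was not tested. HK1 stood at 108, 113 and 108 CPM in sg1, sg2 and sg3, against 105 and 106 CPM in NTC1 and NTC2 (log2 difference 0.07, interval 0.00 to 0.13, edgeR adjusted p = 0.616), with the guide lines above both NTC lines in both letters. Line means separated in other members too. PFKP lay at 72.0 to 73.3 CPM in guide lines, above 70.4 and 71.7 CPM, and BNIP3 at 41.9 to 43.9 CPM, below 44.2 and 44.5 CPM. The share of all genes separated in this way was not counted.

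**Figure D5:**
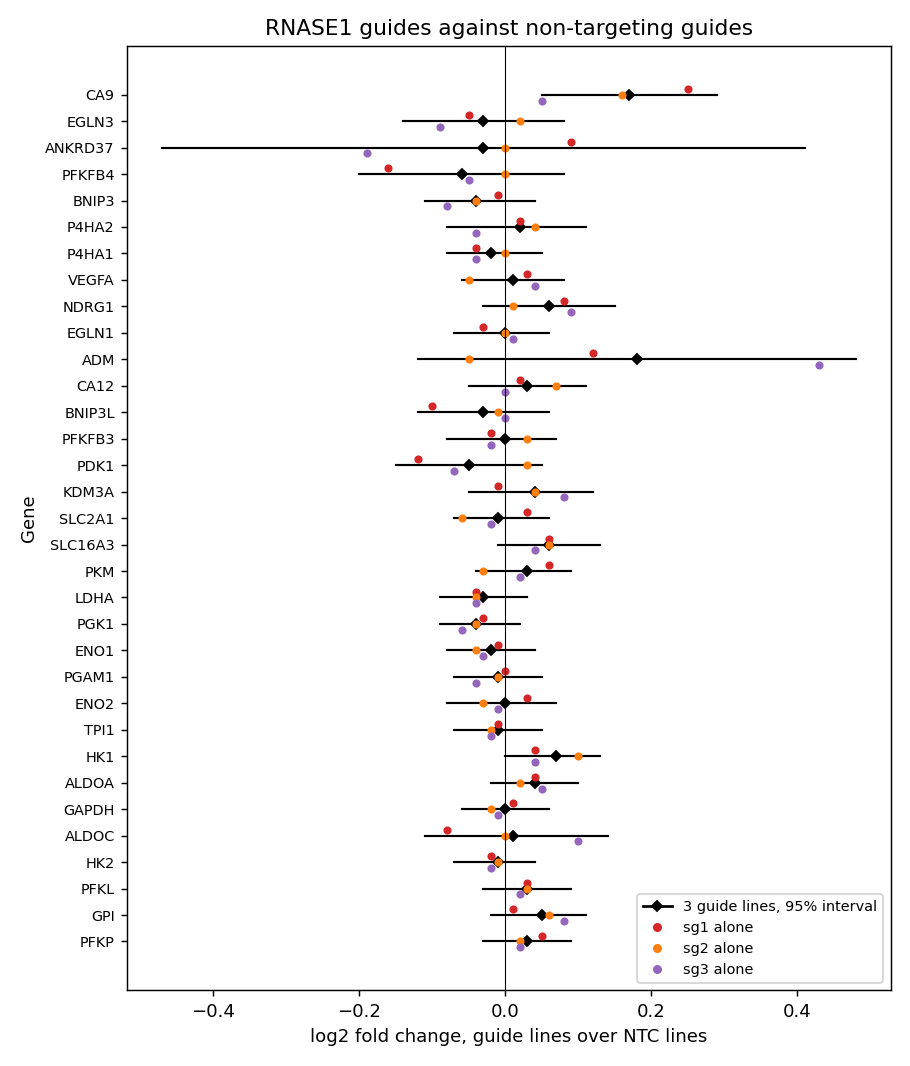
Log2 fold change of guide lines over NTC lines for the 33 members tested, as diamonds with 95% intervals for the 3 guide lines together and as coloured points for sg1, sg2 and sg3 alone. The diamonds lie between -0.06 and 0.18, and no member passed an adjusted p of 0.05.

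In this comparison all 15 enzymes lay between -0.04 and 0.07, each with an interval within 1.2-fold, and SLC2A1 stood at -0.01 and SLC16A3 at 0.06. GAPDH averaged 4900 ± 50.8 CPM in guide lines and 4920 ± 202 CPM in NTC lines (SD, n = 3 and 2), a log2 difference of 0.00 (interval -0.06 to 0.06). Taken singly against the mean of both NTC lines, sg1, sg2 and sg3 each had 0 members past the edgeR threshold, where 0.00609% of 16411 genes passed for each guide. CA9 was at 0.25 in sg1, 0.16 in sg2 and 0.05 in sg3, each with an SE of 0.26. The single comparisons were less precise. In sg1, sg2 and sg3 the interval lay within 1.2-fold for 17, 20 and 17 of the 33 members. Over all 16411 genes it did so for 6705, 6967 and 6727. At an unadjusted p under 0.05 sg1 and sg2 had 0 members, against 2.30% and 1.82% of all genes, and sg3 had 1, against 2.16%. That gene was ADM, at 4.03 and 4.02 CPM in sg3 B and sg3 A, against 2.49 to 3.48 CPM in the 4 NTC libraries (log2 difference 0.43, edgeR adjusted p = 1). The 3 single comparisons share the NTC libraries. These fits do not hold the letter, which adds to their error, and with the letter in the fit 0 members passed in edgeR for any guide. At an unadjusted p under 0.05 that fit had CA9 and PFKFB4 for sg1, CA9 and HK1 for sg2 and ADM and GPI for sg3, against 7.56%, 6.14% and 7.43% of all genes.

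No member passed the threshold among the control lines or among the guide lines. NTC2 against NTC1 had 0 member calls in edgeR and 0 at an unadjusted p under 0.05, against 0% and 1.72% of all genes, with CA9 at -0.02 (interval -0.70 to 0.67). The test of any difference among sg1, sg2 and sg3 had 0 members at either limit, against 0% and 1.38% of all genes, in a fit without the letter. With the letter in the fit 0 members passed in edgeR, and 2 did at an unadjusted p under 0.05, ADM and CA9, against 4.18% of all genes. CA9 stood higher in sg1 than in sg3 in both letters, at 22.4 and 18.7 CPM in B and 33.7 and 29.8 CPM in A. For the letter difference in guide lines against that in NTC lines, 0 members passed in edgeR, where 0% of all genes passed. At an unadjusted p under 0.05, against 5.73% of all genes, 2 members stood out, CA12 at -0.17 and PDK1 at -0.18. Both had an edgeR adjusted p of 0.867. CA12 was lower in B in the 3 guide lines, by -0.09 in sg1, -0.03 in sg2 and -0.10 in sg3, and higher in B in NTC1 (0.10) and NTC2 (0.09). For CA9 the letter difference in guide lines minus that in NTC lines was -0.05 (interval -0.23 to 0.12).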

How the data were processed

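The members and gene lists were chosen with earlier results of these data known, including the letter difference of CA9. The table the authors deposited holds expected counts, which RSEM estimated according to its name. The submitters' processing notes name the hg38 build with CASAVA 1.8.2, TopHat2 2.0.8 and FastQC 0.11.2, without saying what each did; the annotation release is not stated. Ambiguous reads are divided by RSEM, so counts of overlapping genes and copies are uncertain. Of the values, 7.12% were not whole, and all were rounded before testing. Positions and transcript lengths come from GENCODE 29 on GRCh38, which matched 58597 of 58870 identifiers. Promoter windows come from RefSeq.

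Tests were two-sided quasi-likelihood tests in edgeR 4.0.16 (R 4.3.3) with TMM scaling and filterByExpr. The letter comparison (B over A) used all 10 libraries with the line in the model. Guide lines were compared with NTC lines on counts summed over B and A, and single lines in 1 fit of line means over all 10 libraries. The difference of letter effects used the interaction term. Benjamini-Hochberg adjustment ran over every gene tested, with a threshold of 0.05. Log2 differences within a line used log2(CPM + 0.1). Intervals cover the spread as fitted, and floors cover counting error only, at 3 counts. The fits were tested on simulated counts. Same-lettered libraries deviated together from their line means in all 10 pairs of lines over 9527 genes at 10 CPM or more (r 0.483 to 0.779) and in 8 of 10 pairs by over 0.1 over all 16411 genes. The pairing by letter is read from these values, not from the labels. Members and RNASE1 were all named; of the other lists, up to 6 genes past the letter threshold could be named, those with the largest differences first, or else the most abundant. Alternatives were DESeq2 1.42.0, other scaling, no filter, offsets for GC content and length, blocks, and libraries or lines left out. Listed symbols that the table does not carry were not analysed here.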

Additional observations from a re-analysis of the deposited data

Results flagged for a closer look

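In 66 groups of 5 libraries, 1 group for each tested member and letter, a library standing far from the other 4 was looked for, and chance gives about 1 in 20 groups. There were 3. P4HA2 stood at 26.2 CPM in NTC1 B, with the other B libraries at 28.1 to 28.9 CPM. PFKP stood at 76.3 CPM in sg1 B, with the others at 72.9 to 73.5 CPM, and at 67.3 CPM in NTC2 A, with the others at 70.3 to 71.0 CPM. PFKP kept its positive letter difference with sg1 left out (0.07, edgeR adjusted p = 0.103) and with NTC2 left out (0.07, adjusted p = 0.0898), and P4HA2 kept its call with NTC1 left out (-0.19).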

How the results depend on the processing

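No member call changed direction under any alternative. Over 14 alternatives of the letter comparison 13 to 20 members fell and 2 to 4 rose, and over 23 alternatives of the guide comparison 0 members passed, with CA9 between 0.04 and 0.30. The 0.04 came without NTC2 B and the 0.30 without NTC2 A, fits in which the letters are not balanced. Among all genes, the letter comparison called 1288 lower and 1354 higher with the guide lines alone and 1588 lower and 1711 higher with the NTC lines alone, and the cause was not tested. The median of the HIF targets was -0.12 with the NTC lines alone and -0.12 to -0.07 with 1 line left out, and the median of the enzymes was -0.03 with the length offset. Without the line in the model (no replicate block of lines) 17 members fell and 3 rose. Over all genes, the guide comparison called 1 lower and 3 higher; DESeq2 called 10 lower and 45 higher, no filter gave 87 and 151, A libraries alone gave 7 lower, and leaving out 1 line or library gave 1 to 9 lower and 0 to 20 higher, the cause not tested. With the letter as a replicate block 1 gene was higher, with or without the GC offset, and CA9 stood at 0.15 (edgeR adjusted p = 0.34); the block changed no member call.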
